A study of Mus musculus with 2 samples.

Results

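Mir183, Mir96 and Mir182 are neighbouring microRNA loci that are processed from a shared primary transcript. They were taken by name, as 3 of the 1973 loci in the count tables, with no threshold on a measured value, although earlier results of these data were known. All 3 were detected in embryonic mouse hindbrain, in the order Mir182, Mir183, Mir96, and all lay in the upper part of the abundance range. The study has 1 group, the hindbrain of strain B6NCrl at embryonic day 14.5, with no genetic change or treatment named in the labels. Replicate 2 was collected on day 30 of July 2014 and replicate 1 on day 24. Each gave 1 library of RNA under 30 nucleotides. One label describes a single hindbrain for each library, whereas the label for sex names a pool of both sexes, so it is unclear whether a library holds 1 embryo or several. The labels number the libraries as biological replicates 2 and 1, and the collection days differ. The donor label is the same for both, so how far the animals are independent is not settled. SD and p-values therefore cover no more than the spread of this pair of libraries, in which biological and technical parts cannot be told apart. Gene-strand counts on loci came to 6667238 in replicate 2 and 5826676 in replicate 1, so that 3 counts, the most that a count of 0 allows, equal 0.450 CPM in replicate 2, against 0.515 in replicate 1.

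The miR-183 family is best known from sensory cells. Its members are abundant in hair cells of the inner ear, photoreceptors, olfactory neurons and neurons of the sensory ganglia, and mouse mutants that lack the cluster have defects of hearing, balance and vision. Single-base changes in the miR-96 seed cause hearing loss in humans and in mice. A seed is the stretch near the 5′ end of a microRNA that pairs with target messages. CPM is the gene-strand count of a locus per 1000000 such counts on all loci. In bulk tissue, fewer cells of a type and less RNA per cell cannot be told apart.

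The mature 5p products show how alike the members are. They are given 5′ to 3′ from RefSeq (GRCm38.p6), with the seed, bases 2 to 8, in capitals, together with the one 5p arm of another locus that shares the miR-96 seed.
miR-183-5p: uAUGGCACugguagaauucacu
miR-96-5p: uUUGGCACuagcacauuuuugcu
miR-182-5p: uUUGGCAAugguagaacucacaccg
miR-1271-5p: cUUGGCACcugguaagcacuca

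With positions counted from 1 at the 5′ end, the seed of miR-183-5p differs from that of miR-96-5p by A2U. The seed of miR-182-5p differs from that of miR-96-5p by A8C, and from that of miR-183-5p by U2A and A8C. Beyond the seed, miR-182-5p and miR-183-5p are alike and miR-96-5p stands apart. Compared base by base without gaps, miR-182-5p and miR-183-5p are identical at 18 of 22 positions, with a shared run of 8 bases that starts at base 9. By the same count miR-96-5p is identical to miR-182-5p at 12 of 23 positions and to miR-183-5p at 13 of 22. Of 1738 mature microRNAs in the RefSeq table, 1 outside the cluster has the miR-96-5p seed, and 0 have the seed of miR-182-5p or miR-183-5p.

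The tables count reads per hairpin, so the 5p and 3p arms cannot be separated. The hairpins follow in the order of transcription, with the 5p arm in capitals, because these are the sequences whose reads were counted.
Mir183: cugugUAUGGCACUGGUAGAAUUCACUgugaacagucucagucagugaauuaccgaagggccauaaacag
Mir96: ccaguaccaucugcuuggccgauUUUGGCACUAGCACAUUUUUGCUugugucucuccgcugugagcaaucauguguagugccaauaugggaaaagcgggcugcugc
Mir182: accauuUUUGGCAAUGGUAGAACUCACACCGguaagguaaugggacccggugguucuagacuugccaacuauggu

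All 3 lie on the minus strand of chromosome 6 (GRCm38). Mir183 (ENSMUSG00000065619) is at chr6:30169668-30169737, Mir96 (ENSMUSG00000065586) at chr6:30169446-30169551 and Mir182 (ENSMUSG00000076361) at chr6:30165918-30165992. Mir183 and Mir96 are 116 bases apart, and Mir182 follows 3453 bases further on. The span of 3820 bases overlaps 0 other annotated genes. On the Mir183 side the next gene is Rncr4, a long non-coding RNA known from the mouse retina, which starts 3155 bases away on the opposite strand. On the Mir182 side the next gene is Nrf1, a transcription factor of mitochondrial genes, 12459 bases away. The longest run of bases that a member shares with any of the 1893 other hairpins with a sequence, on either strand, is 14 for Mir183, 11 for Mir96 and 11 for Mir182. A locus is said here to have a copy where it shares a run of 20 bases with another hairpin, since reads that map to several places are not counted on loci. By this measure no member has a copy.

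Mir182, the last of the cluster along the transcript, was its most abundant member. It had 13049 counts (1957 CPM) in replicate 2 and 12726 counts (2184 CPM) in replicate 1, a mean of 2071 ± 160 CPM (SD, n = 2). Mir183, the first along the transcript, had 10318 counts (1548 CPM) in replicate 2 and 8363 counts (1435 CPM) in replicate 1, a mean of 1491 ± 79.4 CPM (SD, n = 2). Mir96, the member whose seed mutations cause hearing loss, had 3956 counts (593 CPM) in replicate 2 and 2792 counts (479 CPM) in replicate 1, a mean of 536 ± 80.7 CPM (SD, n = 2). The ranges of the 3 loci did not overlap, so the order Mir182, Mir183, Mir96 held in both libraries, and it is not the order along the transcript. Exact 95% Clopper-Pearson intervals were narrow against the gaps, 575 to 612 CPM for Mir96 in replicate 2 and 462 to 497 CPM in replicate 1. These intervals, like all others below, cover counting error only, since PCR reads without molecular identifiers are not independent molecules.

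The order was also the same per base of locus length. Mir96, the lowest in CPM, is also the longest locus (106 bases, against 75 for Mir182 and 70 for Mir183). Its place could therefore not change on this scale. The lengths of Mir182 and Mir183 differ by less than their counts, whose ratio was 1.26 in replicate 2 and 1.52 in replicate 1. Their order could thus not change either, so this scale is no separate check of the order. Mir182 had 26.1 CPM per base in replicate 2 and 29.1 in replicate 1. Mir183 had 22.1 CPM per base in replicate 2, against 20.5 in replicate 1. Mir96 had 5.60 CPM per base in replicate 2, against 4.52 in replicate 1. On this scale too the ranges of the 3 loci did not overlap. Unequal capture of different microRNAs during library preparation was not measured.

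Among all loci ordered by mean CPM, Mir182 stood at rank 75, Mir183 at rank 85 and Mir96 at rank 121. At least 10 counts in each library were found for 401 loci, whose median was 130 CPM. Mir182 was 16.0 times, Mir183 11.5 times and Mir96 4.13 times that median. The loci next to Mir182 in this order, Mir16-1 above it with 2076 ± 68.6 CPM and Mir708 below it with 2035 ± 89.4 CPM (SD, n = 2), did not differ from it beyond the spread of the libraries. The same held for Mir3071 with 549 ± 104 CPM and Mir351 with 526 ± 37.3 CPM on either side of Mir96. Above Mir183, Mir423 had 1656 CPM in replicate 2, against 1680 CPM in replicate 1, outside the range of Mir183. Below it, Mir181b-2 had 1202 CPM in replicate 2, against 1552 CPM in replicate 1, which overlapped that range. Mir16-1, Mir708 and Mir181b-2 have a copy, so their levels may be too low and their places in this order are uncertain.

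**Figure D1:**
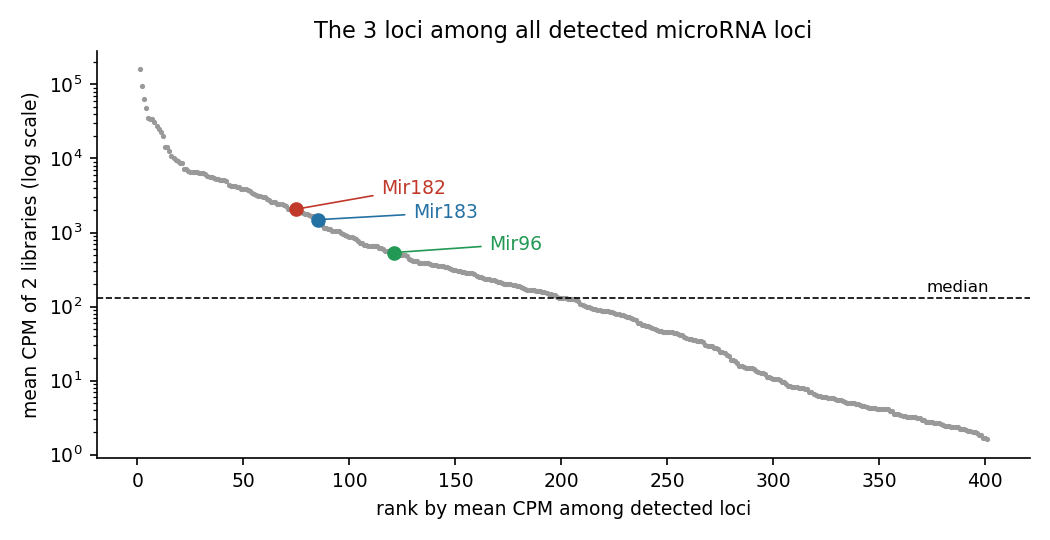
Mean CPM over 2 libraries (log scale) against rank for the 401 detected microRNA loci, each a grey point, with the 3 members of the cluster in colour. Mir182, Mir183 and Mir96 lie at ranks 75, 85 and 121, above the dashed median of 130 CPM.

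The loci with levels most like the members, by Euclidean distance of log2(CPM + 1) over the 2 libraries among the 400 other detected loci, were these. For Mir182 they were Mir484 (distance 0.10), Mir125b-1 (0.13) and Mir16-1 (0.16). For Mir96 they were Mir3071 (0.07), Mir351 (0.12) and Mir138-2 (0.16). For Mir183 they were Mir423 (0.25), Mirlet7f-2 (0.28) and Mir154 (0.29). Of these 9 loci, Mir125b-1, Mir16-1 and Mir138-2 share a run of 20 bases with another hairpin, so their own levels may be too low. With 2 libraries this likeness is little more than a similar level.

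The locus of the other microRNA with the miR-96 seed, miR-1271-5p, had almost no counts. This locus, listed as Gm24195 on chromosome 13, had 1 count in replicate 2 and 0 in replicate 1, where a count of 0 allows up to 0.515 CPM. Mir96, with 3956 counts in replicate 2 and 2792 in replicate 1, thus held nearly all counts on loci with this seed in a 5p arm. The other arm, miR-96-3p, shares its seed with miR-3475-5p, whose locus Mir3475 had 93.0 CPM in replicate 2, against 86.3 CPM in replicate 1.

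Together the 3 loci held 0.410% of all locus counts, 4098.1 CPM in replicate 2 and 4098.6 CPM in replicate 1. The difference was far inside counting error, as the 95% interval of replicate 2 ran from 4050 to 4147 CPM. Within this total the composition differed between the libraries. Mir182 made up 47.8% of the cluster in replicate 2 and 53.3% in replicate 1. Mir183 made up 37.8% in replicate 2, against 35.0% in replicate 1. Mir96 made up 14.5% in replicate 2, against 11.7% in replicate 1. For no locus did the 95% intervals of the libraries overlap. The nearest pair were those of Mir183, 37.2 to 38.3% in replicate 2 and 34.4 to 35.6% in replicate 1.

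**Figure D2:**
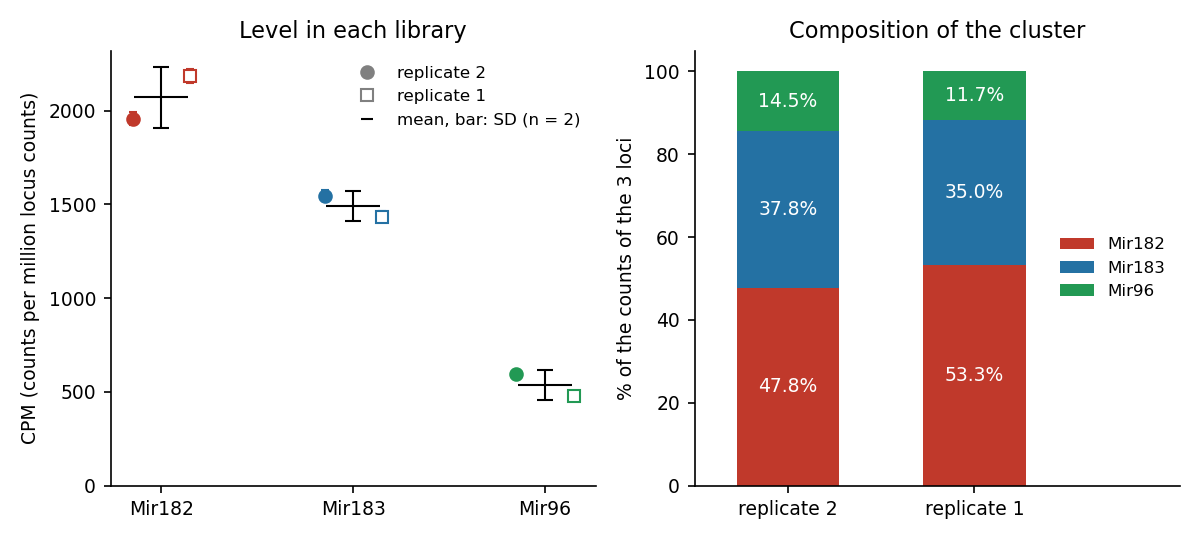
Left, CPM of each locus in replicate 2 (filled circles) and replicate 1 (open squares) with 95% intervals for counting error, beside the mean and SD of the 2 libraries (black). Right, the share of each locus in the counts of the cluster, in percent: Mir182 holds 47.8% in replicate 2 and 53.3% in replicate 1, and the other two loci hold more in replicate 2.

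The 3 ratios between members were each lower in replicate 2 by two-sided Fisher's exact tests on the counts, adjusted by Benjamini-Hochberg over the 3 pairs. Mir182 over Mir96 was 3.30 in replicate 2 (95% interval 3.18 to 3.42) and 4.56 in replicate 1 (4.37 to 4.75), a quotient of 0.724 (0.685 to 0.764, Fisher's exact adjusted p = 2.68e-31). Mir182 over Mir183 was 1.26 in replicate 2 and 1.52 in replicate 1, a quotient of 0.831 (0.800 to 0.863, Fisher's exact adjusted p = 1.27e-21). Mir183 over Mir96 was 2.61 in replicate 2 and 2.995 in replicate 1, a quotient of 0.871 (0.823 to 0.922, Fisher's exact adjusted p = 1.52e-06). These tests compare the libraries against counting error alone, so they do not show how far the ratios vary between embryos. A ratio within a library does not depend on the scaling of libraries.

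Each locus was also compared between the libraries after TMM scaling, which assumes that most loci do not differ. Mir96 had 585 scaled CPM in replicate 2 and 486 in replicate 1, a log2 ratio of 0.27 (95% interval 0.20 to 0.34, exact binomial test, Benjamini-Hochberg adjusted p = 5.77e-13 over 498 loci). Mir182 had 1929 scaled CPM in replicate 2 and 2217 in replicate 1, a log2 ratio of -0.20 (-0.24 to -0.17, exact binomial adjusted p = 6.31e-28). Mir183 had 1525 scaled CPM in replicate 2 and 1457 in replicate 1, a log2 ratio of 0.07 (0.02 to 0.11, exact binomial adjusted p = 0.00674). Thus 2 of 3 members were higher and 1 lower in replicate 2 beyond counting error, where 17.5% of all tested loci were higher and 15.1% lower. The test calls smaller differences at higher counts, and the tested loci include some with as few as 10 counts over both libraries. These percentages, here and below, are therefore not those of loci as abundant as the members. The median log2 ratio of the members was 0.07, against 0.01 for all 498 loci. The call for Mir183 was lost with DESeq2 size factors (log2 ratio 0.05, exact binomial adjusted p = 0.0596) and with upper-quartile scaling (0.05, exact binomial adjusted p = 0.0540).

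Differences as large were common between the 2 libraries. With the common dispersion estimated by edgeR, a coefficient of variation of 10.8%, 0 of the 3 members were called (edgeR exact test, adjusted p = 1.0 for each), and 1.41% of all loci were. The unadjusted p in that edgeR exact test was 0.236 for Mir96, 0.365 for Mir182 and 0.767 for Mir183, so 0 members passed there either. Of the 282 loci that reached 100 counts in both libraries, 19.5% had an absolute log2 ratio at or above that of Mir96, 29.1% at or above that of Mir182 and 71.6% at or above that of Mir183. Collection day coincides with replicate, so these cannot be told apart. For the summed counts the log2 ratio was -0.04 (-0.07 to -0.02) with TMM and -0.000167 with library totals, so the equal totals hold for unscaled CPM.

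**Figure D3:**
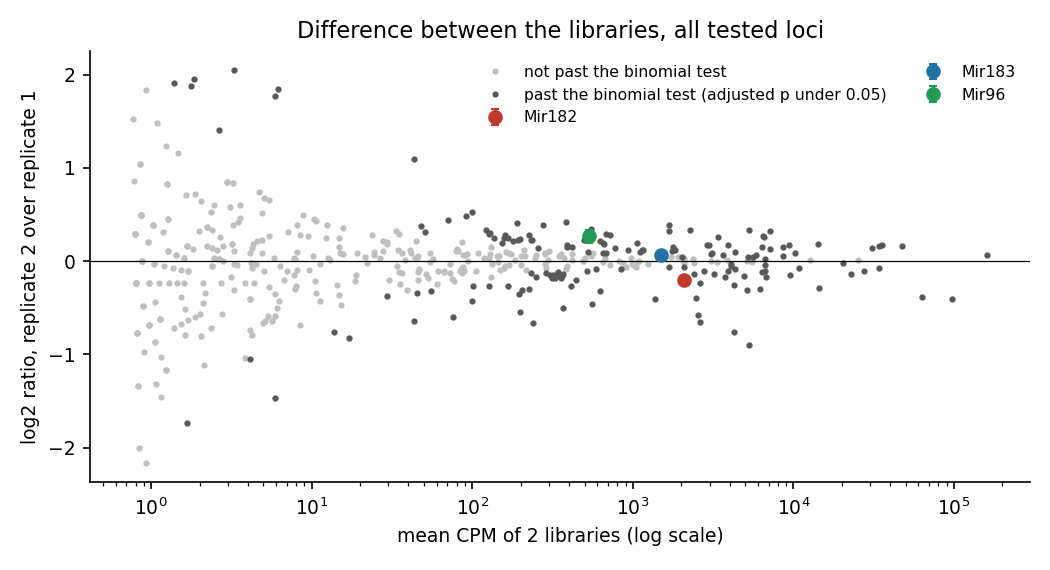
Log2 ratio of replicate 2 over replicate 1 after TMM scaling against mean CPM (log scale) for 498 loci. Dark points passed the exact binomial test, and the coloured points with 95% intervals are Mir182 (-0.20), Mir183 (0.07) and Mir96 (0.27), which lie within the cloud of loci of similar level.

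The members were closer in level than those of most other polycistrons. Runs of loci on the same strand, each within 10 kb of the next, with at least 3 loci of 10 or more counts in each library, formed 16 polycistrons. The highest member exceeded the lowest by 3.86-fold in the Mir183 cluster, by 2.21-fold to 2034-fold over all 16 and by 94.99-fold at the median. Spread was taken only over loci with 10 or more counts in each library, which were all 3 of the Mir183 cluster. The cluster had the second narrowest spread, also among the 8 polycistrons with exactly 3 loci at this count, whose median was 26.7-fold. Narrower was the run of Mir292, Mir293 and Mir294, of pluripotent cells, whose loci had 3.85 to 8.50 CPM and as few as 17 counts. Only these 3 of the 7 loci in that run reached 10 counts in each library. Its spread thus leaves out the lower loci and is not that of the whole run. Next wider was the Mir302 cluster, also of early embryonic cells, with 8.02-fold over the 4 of its 5 loci that reached this count. In 8 of the 16 polycistrons 0 loci had a copy, while in the others copied loci may be counted too low. With copied loci left out, a setting chosen after seeing the data, 13 polycistrons remained, their median was 34.9-fold, and the Mir183 cluster was again the second narrowest. In replicate 2 alone the Mir183 cluster was the narrowest, at 3.30-fold, and in replicate 1 alone it was the second, at 4.56-fold. No test was made of this spread.

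The log2 ratios of the 3 members spanned 0.47, near the median of 0.48 over the 16 polycistrons. The largest change in the share of a member was 5.53 percentage points, that of Mir182, against a median of 1.79 over the polycistrons. Of the 16 polycistrons, only the run of Mir292 to Mir294 had a larger one, 17.97 points. A change in points can be large only where no single locus holds nearly all counts, so this order partly repeats that of the spread. In the run of Mir449a, where 1 locus dominates, log2 ratios spanned 0.82 but the largest change was 0.042 points.

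**Figure D4:**
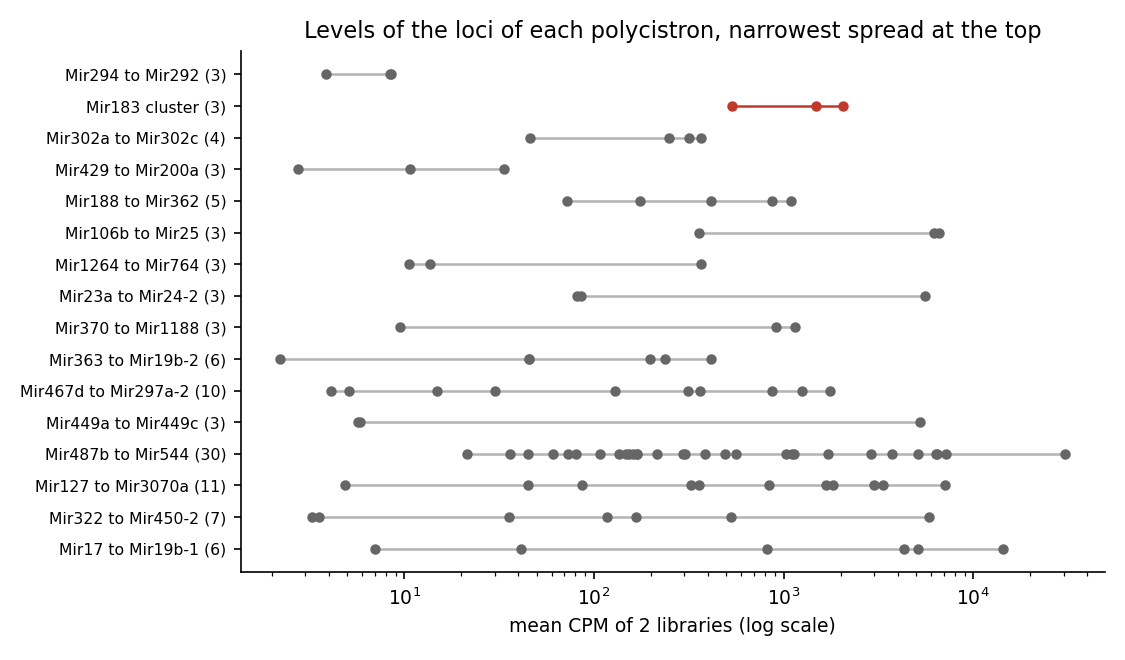
Mean CPM over 2 libraries (log scale) of each locus, a point, in each of 16 polycistrons, ordered from the narrowest to the widest spread and named by the highest and the lowest locus with the number of loci in brackets. The Mir183 cluster, in red, spans 3.86-fold, while the widest, Mir17 to Mir19b-1, spans 2034-fold.

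Other microRNAs of sensory organs and of tissues next to the hindbrain were set beside the cluster. The Hox microRNA Mir10a, a mark of hindbrain and spinal cord, had 84327 CPM in replicate 2, against 108473 CPM in replicate 1. Mir10b, from another Hox cluster, had 55822 CPM in replicate 2, against 70563 in replicate 1. These loci made up nearly all of the list, which summed to 142271 CPM in replicate 2, against 182095 in replicate 1. Mir615 had 2078 CPM in replicate 2, against 3021 in replicate 1. Mir196b averaged 36.7 CPM and Mir196a-2, which has a copy, 4.72 CPM. Of the 6 Hox microRNAs listed 5 were detected. By the binomial test 3 of these, Mir10a, Mir10b and Mir615, were lower and 0 higher. The remaining 2 were not called, where 17.5% of all tested loci were higher and 15.1% lower. In the list of eye and ear microRNAs, Mir204 of pigment epithelium and choroid plexus had 2153 CPM in replicate 2, against 2759 CPM in replicate 1, where Mir182 had 1957 CPM in replicate 2, against 2184 CPM in replicate 1. Mir211, a relative of Mir204, had 4.50 CPM in replicate 2, against 3.95 in replicate 1. Mir184 of lens and cornea had 9.75 CPM in replicate 2, against 2.57 in replicate 1. Mir205, the second highest of the list, had 34.3 CPM in replicate 2, against 52.2 in replicate 1. The list summed to 2202 CPM in replicate 2, against 2818 in replicate 1, nearly all from Mir204, which is on the choroid plexus list too. Of its 4 members 1 was higher, 2 were lower and 1 did not pass the binomial test, beside 17.5% higher and 15.1% lower over all tested loci, with a median log2 ratio of -0.13 against 0.01 over all loci. In the neurosecretory list, Mir7b had 995 CPM in replicate 2, against 941 in replicate 1. Mir375, known from endocrine cells, had 564 CPM in replicate 2, against 682 in replicate 1. This list summed to 2206 CPM in replicate 2, against 2254 in replicate 1. Of its members 0 were higher, 1 was lower and 3 did not pass, beside 17.5% higher and 15.1% lower over all tested loci.

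The lists for multiciliated and choroid plexus cells summed to more than the cluster, and their sums were lower in replicate 2. Mir204 and Mir211 stand in both the choroid and the eye and ear lists, and Mir205 in both the eye and ear and the epithelial lists. The choroid plexus list, with all 6 members detected, had 6165 CPM in replicate 2, against 9118 CPM in replicate 1, and 5 of 6 were lower by the binomial test, beside 15.1% of all tested loci. The multiciliated list had 5961 CPM in replicate 2, against 10136 CPM in replicate 1, and 4 of 6 were lower, beside the same 15.1%. Some members of each of these lists lie in the same polycistron, as Mir449a and Mir449b do, and may be transcribed together. The numbers of lower members are therefore not counts of independent loci. The median log2 ratio was -0.48 in the choroid list and -0.65 in the multiciliated list, against 0.01 over all loci. The epithelial list, with 7 members, had 767 CPM in replicate 2, against 753 CPM in replicate 1. Of its members 1 was lower and 6 did not pass, beside 15.1% lower over all tested loci. Of all 3 lists 0 members were higher, beside 17.5% of all tested loci. With TMM scaling, the log2 ratio of the sums was -0.61 for the choroid list, -0.81 for the multiciliated list and -0.02 for the epithelial list, against -0.04 for the Mir183 cluster. The sign for the epithelial list depends on the measure, as its unscaled sum was higher in replicate 2 and the median log2 ratio of its members was 0.09. Mir182 was lower in replicate 2, as were the sums of the choroid and multiciliated lists. The sums of the Hox, eye and ear, and neurosecretory lists were also lower. Mir183 and Mir96 were not. The part of these cell types in the levels of Mir182 was not tested, nor was the difference between the cluster and these lists.

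Among the remaining lists, Mir126a of endothelium had 36687 CPM in replicate 2, against 31783 in replicate 1. The neuronal list had 33462 CPM in replicate 2, against 29295 in replicate 1. Of its 9 members 5 were higher, 1 was lower and 3 did not pass the binomial test, beside 17.5% higher and 15.1% lower over all tested loci, and the median log2 ratio was 0.09. The blood list summed to 582 CPM in replicate 2, against 455 in replicate 1, with 2 of 3 members higher, beside 17.5% of all tested loci. With the common dispersion, which called 1.41% of all loci, the calls among the lists were Mir184 and Mir144 of blood, higher in replicate 2, and Mir1298 of choroid plexus, Mir449a and Mir449b of multiciliated cells, lower in replicate 2. Mir183 and Mir96 were higher in replicate 2, as were Mir126a and the sums of the neuronal and blood lists. The muscle list and Mir122, at low levels, were also higher. The part of these cell types in the levels of Mir183 and Mir96 was not tested. Mir122 of liver had 15.7 CPM in replicate 2, against 13.7 in replicate 1. The muscle list had 16.5 CPM in replicate 2, against 15.4 in replicate 1, nearly all from Mir206, while Mir1a-1 had 0 counts in both libraries. Mir133a-1 also had 0, and it has a copy. Of the 6 muscle loci listed 5 are among the loci counted, and the other Mir1a locus is not. A run that Mir1a-1 shares with that locus could therefore not be found. The counts of 0 say nothing of the level of Mir1a-1 or Mir133a-1.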

How the data were processed

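Small RNA from embryonic hindbrain was measured in 2 libraries of 1 group. The authors deposited raw read counts per microRNA locus, on both strands and on each strand, made on mm10 with annotation M4 according to the deposited lists of files. For the aligner and counter, the name is not given in the sources used here. That the columns hold both strands, the gene strand and the opposite strand was read from the values. Gene-strand counts were used, with totals of 6667238 in replicate 2 and 5826676 in replicate 1. Rows that name no locus (4 in each table) did not enter totals. Multimapping reads made up 34.3% of 14348369 reads in replicate 2 and 33.9% of 11804816 in replicate 1. Identifiers matched GENCODE M21 for 1894 of 1973 loci.

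Each locus with 10 or more counts over both libraries was compared by the exact binomial test, two-sided, against TMM effective library sizes (factors 1.01 in replicate 2 and 0.985 in replicate 1), adjusted by Benjamini-Hochberg across all loci at 0.05, and log2 ratios added 0.5 to each count. Since 1 library on each side leaves edgeR's quasi-likelihood test without residual degrees of freedom, edgeR's exact test with the common dispersion was the alternative. Its dispersion came from both libraries taken as 1 group, the same pair that was then compared. Scripts were tested on simulated data. Members, lists and tests were chosen with earlier results of these data known. The rule for named loci took the members, the 3 nearest in level to each, loci sharing a seed, at most the 2 highest of each list, the polycistrons next in spread and the adjacent genes. Mir708, Mir181b-2, Mir211, Mir184, Mir615, Mir196b, Mir196a-2, Mir144, Mir449b, Mir1a-1, Mir133a-1 and the Mir17 cluster were named after their values were seen. Software was edgeR 4.0.16 and DESeq2 1.42.0 in R 4.3.3, with scipy 1.17.1, numpy 2.4.6, pandas 2.3.3 and matplotlib 3.10.9 in Python 3.11.15.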

Additional observations from a re-analysis of the deposited data

Results flagged for a closer look

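Reads on the strand opposite to the loci, which the comparisons above leave out, exceeded 3 counts at Mir183 and Mir182. At Mir183 there were 9 in replicate 2, which was 0.0872% of its counts on both strands (exact 95% Clopper-Pearson interval 0.0399 to 0.165%), and 6 in replicate 1, which was 0.0717% (0.0263 to 0.156%). At Mir182 there were 10 in replicate 2, or 0.0766% (0.0367 to 0.141%), and 4 in replicate 1, or 0.0314% (0.00856 to 0.0804%). Mir96 had 0 in each library. Over all loci the opposite strand held 2.21% in replicate 2 and 1.99% in replicate 1.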

How the results depend on the processing

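The direction of each member between the libraries held under all 8 alternatives run for it, from -0.22 to -0.16 for Mir182, 0.05 to 0.11 for Mir183 and 0.25 to 0.31 for Mir96 (log2). With edgeR's common dispersion the log2 ratios were -0.20 for Mir182, 0.0661 for Mir183 and 0.27 for Mir96 with an adjusted p of 1.0 each, and 4 loci were higher and 3 lower in place of 87 and 75. The call for Mir183 was also lost with DESeq2 size factors (0.0491, exact binomial adjusted p = 0.0596) and upper quartile (0.0499, exact binomial adjusted p = 0.0540). The summed log2 ratio was -0.000167 with library totals, and the causes of these shifts were not tested. Per 1000000 of all reads, Mir182 had 994, Mir183 714, Mir96 256 and the sum 1964, because the denominator is larger. The sum was 4015 CPM with both strands and 4099 with TMM sizes. Scaled to the median locus length, levels were 2485, 1918 and 455 CPM, and Mir182 and Mir183 over Mir96 were 5.55 and 4.24 per base, because the Mir96 locus is longer. Among loci without a copy, Mir182 ranked 66, Mir183 72 and Mir96 98, since fewer loci were ranked, and with both strands Mir183 ranked 90 and Mir96 128. Leaving out each replicate gave ranks of 70 to 77 for Mir182, 85 to 86 for Mir183 and 116 to 125 for Mir96, Mir182 over Mir96 of 3.30 to 4.56, and place 1 to 2 for the spread of the cluster. That place was 3 of 19 with loci chained within 50 kb, 1 of 11 with at least 100 counts in each library, and 2 of 13 with copied loci left out, chosen after seeing the data. A replicate left out leaves no ratio between the libraries, so none was run. The common-dispersion test was not run on the summed counts. No paired analysis was possible because there is 1 group.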
